A study of Drosophila melanogaster with 24 samples.

Results

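The circadian clock genes followed here were period (per), timeless (tim), Clock (Clk), cycle (cyc), vrille (vri), PAR-domain protein 1 (Pdp1), cryptochrome (cry), clockwork orange (cwo), doubletime (dco) and timeout. Their probe sets were those whose array annotation names 1 of these 10 genes and no other. That rule did not use Signal values, but the genes were listed with earlier results of these data known. They numbered 12 of the 18769 probe sets on the array, with 2 each for tim and cwo and 1 for each of the other genes. All 12 reached a median Signal of 75 across the arrays, the condition for being tested, which 11439 probe sets met.

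The flies came from an artificial selection experiment in Drosophila melanogaster on locomotor reactivity, the amount of movement after a mechanical disturbance. A genetically mixed population founded from wild-caught isofemale lines was split into lines selected for high activity (H), lines selected for low activity (L) and unselected control lines (C), with 2 replicate lines of each. The lines came from 2 starting bottles, each split among H, L and C, and the fits here did not pair lines by bottle. No transgene, mutant allele or drug separated the groups, which differed by design in their selection history, and each line is 1 population. Whether differences between groups come from alleles left by selection and drift or from other conditions of the samples was not tested. Virgin flies 3 to 7 days old were collected at generation 25, with 2 samples of 12 pooled flies for each line and sex, which gave 24 arrays, 8 for each group. The flies lived in a light-dark cycle and were taken in the morning, in the hours of the behavioural assays. No source used here gives the hour of each sample.

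The fly clock is a loop of transcription factors. CLK and CYC bind DNA as a pair and switch on per and tim, whose proteins return to the nucleus and shut CLK and CYC down. A second loop holds vri and Pdp1, which CLK and CYC also switch on, with VRI repressing Clk and PDP1 activating it. In clock cells the mRNAs of per, tim, vri, Pdp1 and cwo rise and fall each day, with peaks from late day into the night, and Clk mRNA runs opposite to them, so that a level from 1 part of the day is a point on a curve. CWO represses the targets of CLK, DCO is the casein kinase that phosphorylates PER, CRY is the blue light receptor that leads to the loss of TIM, and timeout is the paralogue of tim, known for roles in chromosome integrity.

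Whole flies were measured, so a lower Signal can come from fewer cells that express a gene or from less RNA in each, and these cannot be told apart. Signal is an intensity that the authors scaled on each array (trimmed means of 497 to 499), and the values of different probe sets do not give the relative abundance of their transcripts. The median Signal of an array lay between 93.0 and 117.5 in females and between 143 and 158 in males. The replicate samples of a line and sex correlated at 0.969 to 0.985 over the probe sets tested, with no library apart from the rest by this measure. The p-values measure the spread between these pooled samples rather than the spread between lines. The labelled sexes carried their markers: the summed Signal of the testis genes was 61603 to 76161 in males and 370 to 1097 in females, and that of the ovary and egg shell genes was 19177 to 100702 in females and 252 to 483 in males.

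Differences were taken on the log2(Signal) scale, where 1 unit is a 2-fold change, with limma's moderated tests across all 11439 probe sets and Benjamini-Hochberg adjustment. The expression of 2 of the 12 clock probe sets, Clk (adjusted p = 1.84e-06) and Pdp1 (adjusted p = 3.12e-06), varied among the 6 lines at an adjusted p under 0.001, against 4.76% of all probe sets tested. The next were timeout (adjusted p = 0.00272) and the brighter cwo probe set (adjusted p = 0.00309), and 10 of the 12 had an adjusted p under 0.05, as had 28.1% of all probe sets. The line by sex interaction was called for 0 of the 12 by limma and for 0.0437% of all probe sets. Only cyc among them, 1 of the 12, had an unadjusted p under 0.05 for that interaction (15.8% of all probe sets did), with an adjusted p of 0.126 from limma.

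**Figure D1:**
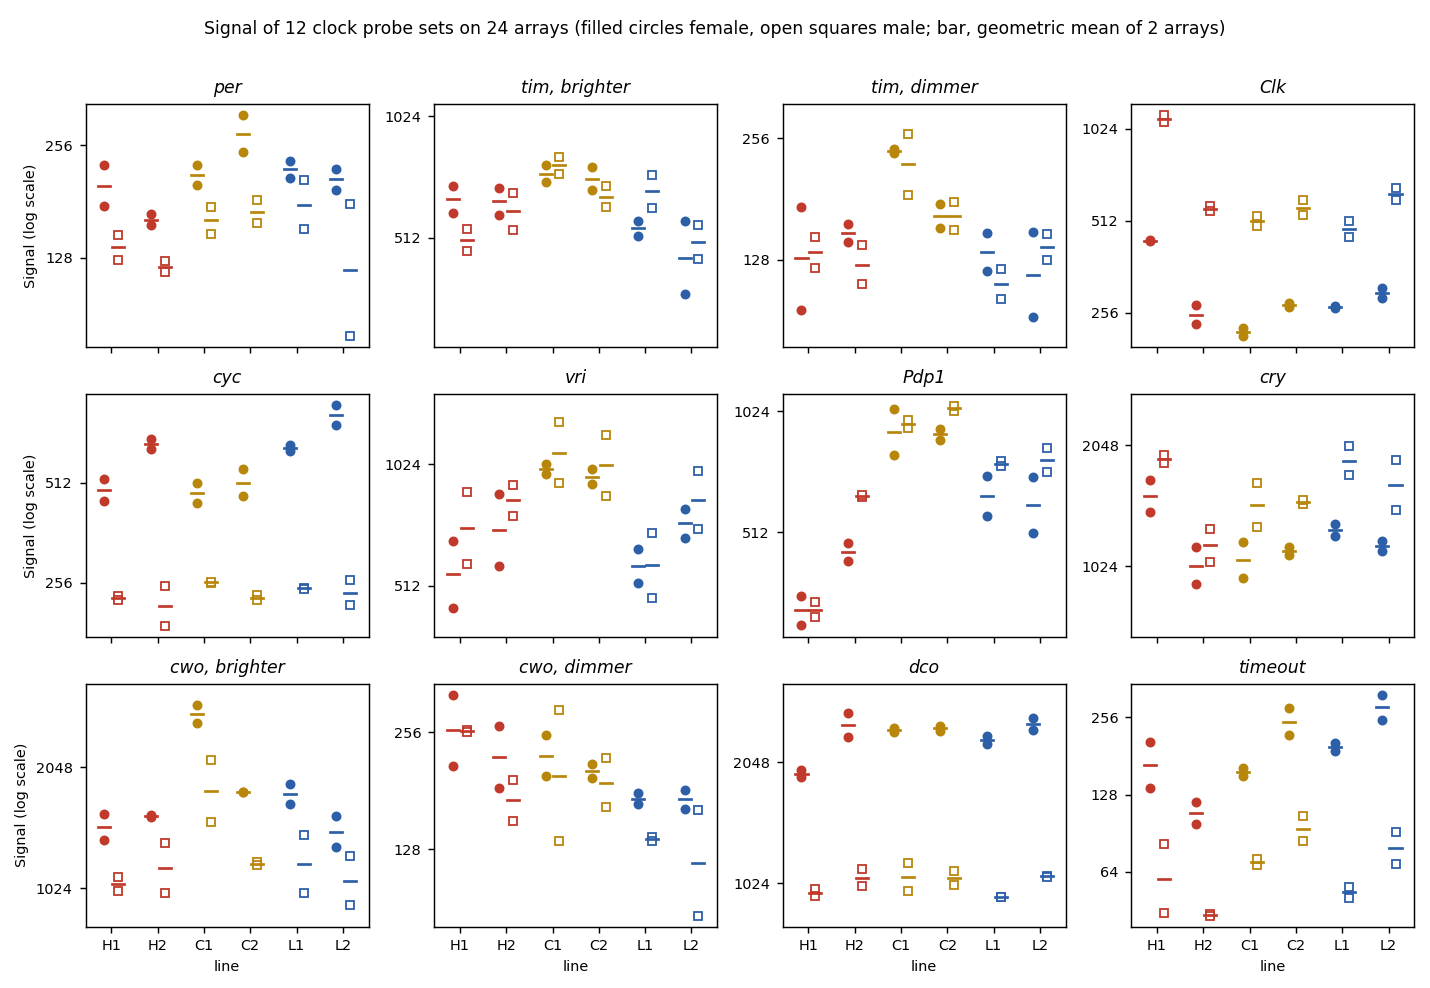
Signal (y axis, log scale) of the 12 clock probe sets on all 24 arrays, by line (x axis: H1 and H2 High, C1 and C2 Control, L1 and L2 Low), with filled circles for female and open squares for male samples and a bar at the geometric mean of the 2 arrays of a line and sex. Clk is highest in H1 in both sexes (440 and 441 in females, 1073 and 1132 in males), Pdp1 is lowest in both High lines, and cyc and dco separate the sexes on every array.

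Between the selection groups, an adjusted p under 0.05 called 5 of the 12 clock probe sets for H and L (15.7% of all probe sets tested), 6 for H and C (11.2%) and 6 for C and L (15.5%). These contrasts share samples, so they are not independent of each other. In H relative to L, 2 were higher (7.85% of all probe sets), Clk and the dimmer cwo probe set, and 3 lower (7.89%), Pdp1, cyc and timeout. In H relative to C, 1 was higher (4.36%), Clk, and 5 lower (6.82%), Pdp1, timeout, vri, the dimmer tim probe set and the brighter cwo probe set. In C relative to L, 5 were higher (9.38%), both tim probe sets, vri, Pdp1 and the brighter cwo probe set, and 1 lower (6.15%), cyc. The median difference over all probe sets was near 0 in each contrast (-0.01 for H minus L, -0.02 for H minus C and 0.01 for C minus L).

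**Figure D2:**
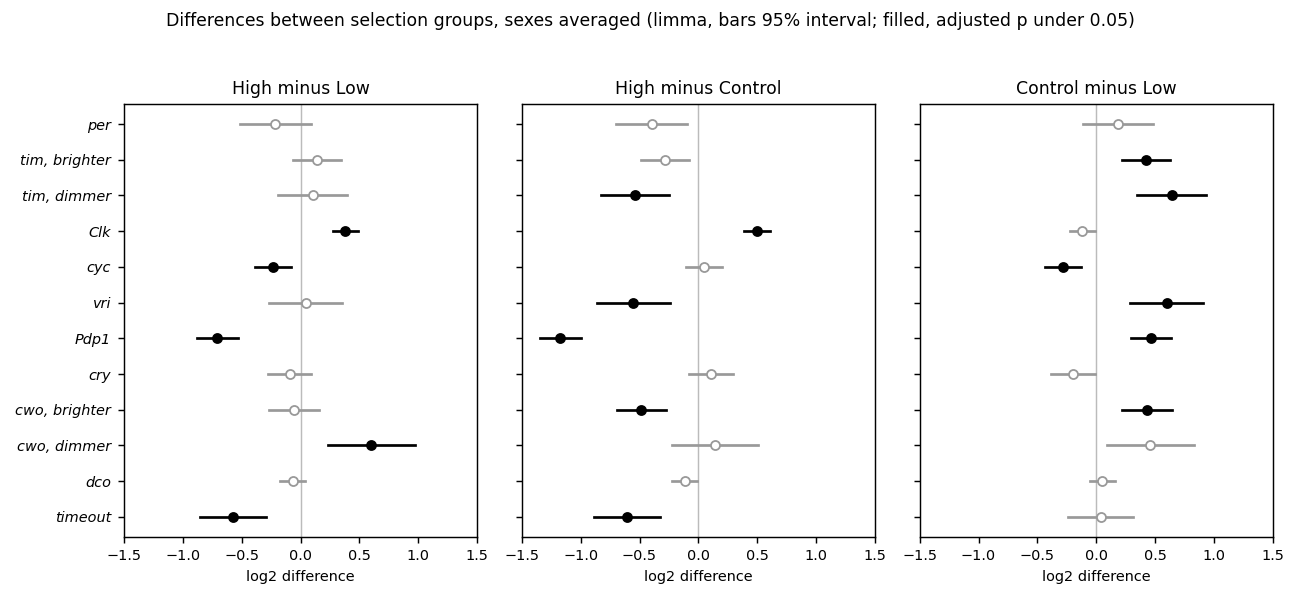
Differences in log2(Signal) between selection groups averaged over the sexes (x axis) for the 12 clock probe sets (y axis), with points at the limma estimate, bars for the 95% interval and filled points for an adjusted p under 0.05. Pdp1 lies farthest from 0 in H minus C (-1.17), and tim, vri, Pdp1 and the brighter cwo probe set lie to the right of 0 in C minus L.

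These calls rest on the spread between the 2 samples of a line and sex. With line as a random block, the same estimated correlation (0.18) was used for every probe set, not each one's own spread between lines. In that fit 1 clock probe set was called for H and L (3.48% of all probe sets), 1 for H and C (1.6%) and 0 for C and L (2.2%, with 7 of the 12 and 14.9% of all at an unadjusted p under 0.05). Both of those calls were Pdp1. When each line counted once, by its mean, limma called 0 of the 12, and 0 of all 11439 probe sets, in each contrast. At an unadjusted p under 0.05 that fit gave 2 clock probe sets for H and L (9.62% of all probe sets), 3 for H and C (7.21%) and 4 for C and L (9.21%).

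Clk encodes the bHLH-PAS activator at the head of the loop. The values of a group and sex follow in the order line 1 replicate 1, line 1 replicate 2, line 2 replicate 1 and line 2 replicate 2, here and throughout. In females Clk (probe set 1631948_s_at) was at 440, 441, 234 and 272 in H, at 227.5, 215, 266 and 274.5 in C and at 269, 266, 309 and 287 in L. In males it was at 1073, 1132, 569.9 and 552 in H, at 493, 528.5, 597 and 534 in C and at 509.6, 451, 597 and 656.5 in L. High line 1 was above every other line of the same sex, while High line 2 lay within the range of the C and L arrays.

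The pooled difference in Clk was 0.38 between H and L (SE 0.05, adjusted p = 0.000149) and 0.50 between H and C (SE 0.05, adjusted p = 2.16e-05). High line 1 exceeded High line 2 by 0.89 (SE 0.07, adjusted p = 5.63e-06), more than either group difference. Without High line 1, the H and L difference turned to -0.06 (adjusted p = 0.611), the H and C difference was 0.05 (adjusted p = 0.68) and the line effect had an adjusted p of 0.0297. In females the H and L difference was 0.24 (adjusted p = 0.0377) and turned to -0.16 without High line 1 (adjusted p = 0.359). In males it was 0.52 (adjusted p = 0.000566) and 0.03 without that line (adjusted p = 0.96).

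Between C and L, Clk differed by -0.12 (adjusted p = 0.128), and this was called without Low line 1 (-0.25, adjusted p = 0.0206), without Control line 2 (-0.23, adjusted p = 0.0357) and with median centring within each sex (-0.21, adjusted p = 0.04). Low line 1 was below Low line 2 by 0.27 (a difference of -0.27, adjusted p = 0.0498), a call that ended when any of 21 single arrays was left out (adjusted p 0.0543 to 0.174). The replicate samples of Clk lay close together, with a median absolute difference of 0.09 within a line and sex.

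The partner of CLK, the bHLH-PAS protein encoded by cyc, had its highest Signal in L females. In females cyc (1640765_at) was at 526, 453, 649 and 695 in H, at 445, 513, 468.5 and 562 in C and at 668, 639.8, 767 and 880 in L. All 4 L females were above all 4 C females, a separation in this direction that 9.07% of all probe sets showed. In males cyc was at 190 to 249.7 in H, 226 to 257 in C and 219 to 259.7 in L, and the groups overlapped.

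In females cyc was lower in C than in L by 0.57 (difference -0.57, SE 0.10, adjusted p = 0.00253) and lower in H than in L by 0.36 (difference -0.36, SE 0.10, adjusted p = 0.0301). In males the same differences were 0.00 (adjusted p = 0.997) and -0.11 (adjusted p = 0.66). The sexes' H and L differences were not shown to differ (-0.24, 95% interval -0.54 to 0.06, adjusted p = 0.442). Averaged over the sexes, cyc was lower in H than in L (-0.23, adjusted p = 0.0363) and in C than in L (-0.28, adjusted p = 0.0158). The first of these ended without any of 11 single arrays (adjusted p 0.0535 to 0.0903), without High line 1 (-0.14, adjusted p = 0.375) and without Low line 2 (-0.16, adjusted p = 0.277). In females the H and L call ended without any of 5 single arrays (adjusted p 0.0535 to 0.118), without High line 1 (-0.13, adjusted p = 0.634) and without Low line 2 (-0.19, adjusted p = 0.437). The pooled C and L call ended without Low line 2 (-0.21, adjusted p = 0.156), Control line 1 or Control line 2 (adjusted p = 0.0652 and 0.0629), and the C and L call in females ended without Low line 2 (-0.40, adjusted p = 0.0855).

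In females the sums of egg shell and replication markers were also highest in L, though few single genes were called when averaged over the sexes. The summed Signal of the 14 named ovary and egg shell genes was 68472 to 100702 in L females, 24553 to 62053 in C females and 19177 to 58210 in H females. That of the 11 DNA replication genes was 12556 to 15497 in L, 8792 to 11003 in C and 7007 to 12865 in H females. Averaged over the sexes, only the egg shell gene Cp15 of the 8 ovary and egg shell genes tested was called between C and L (-1.66, adjusted p = 0.0241), while osk and otu gave 0.67 and 0.21 (adjusted p = 0.449 and 0.76). Of the 11 replication genes 0 were called between C and L, and 1, RnrL, between H and L (-0.36, adjusted p = 0.0419). Males, whose sums were 252 to 483 and 565 to 879, enter these averages, so single genes in females alone were not tested here. The part of these tissues in the level of cyc was not tested.

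Pdp1, the bZIP activator of the second loop, was ordered C above L above H in both sexes. In females Pdp1 (1627436_s_at) was at 356, 302, 482 and 436 in H, at 561, 706, 702 and 512 in L and at 796, 1037, 926 and 869 in C. In males it was at 344, 315, 628 and 634 in H, at 769, 749, 828 and 724.5 in L and at 972, 931, 1026 and 1056 in C. No array of 1 group overlapped with any array of another group of the same sex, in any of the 3 contrasts. Among all probe sets, 4.89% had all 4 H females below all 4 C females and 4.13% had this in males. For H below L these shares were 7.56% in females and 4.23% in males, and for C above L 8.47% and 5.09%.

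The H and C difference in Pdp1 was -1.17 (SE 0.08, 95% interval -1.35 to -1.0, adjusted p = 7.89e-07), the H and L difference -0.71 (SE 0.08, adjusted p = 4.35e-05) and the C and L difference 0.47 (SE 0.08, adjusted p = 0.0017). The sexes gave like values for H and C, -1.22 in females and -1.13 in males (adjusted p = 6.63e-05 and 8.01e-05). In C and L the female difference was 0.56 (adjusted p = 0.0059) and the male 0.38 (adjusted p = 0.0887). High line 1 was lower than High line 2 by 0.71 (difference -0.71, SE 0.11, adjusted p = 0.00259), whereas the 2 lines of C and of L differed by -0.06 and 0.02 (adjusted p = 0.864 and 0.946).

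High line 1 was the highest of the 6 lines in Clk and the lowest in Pdp1, and High line 2 was below the C and L lines in Pdp1 while lying among them in Clk. Without High line 1, Pdp1 was still lower in H than in L averaged over the sexes (-0.35, adjusted p = 0.0467), but not within females (-0.42, adjusted p = 0.118) or males (-0.28, adjusted p = 0.378), and the line effect had an adjusted p of 0.00138. The male H and C difference was -0.66 without that line (adjusted p = 0.0338). With line as a random block Pdp1 was lower in H than in C (adjusted p = 0.000252) and than in L (adjusted p = 0.0129), while its C and L call ended (adjusted p = 0.137). That fit shares its correlation over all probe sets, so these p-values do not measure the spread between lines in Pdp1 itself. With line means as the samples, Pdp1 was not called in any contrast.

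The bZIP repressor vri, the counterpart of Pdp1, was highest in C. In females vri (1639273_s_at) was at 450.3, 662, 573 and 863 in H, at 967, 1029, 915 and 995 in C and at 633, 519, 795 and 673 in L. In males it was at 581, 875, 912 and 764 in H, at 923, 1301, 1212 and 857 in C and at 478, 694, 989 and 709.8 in L. The 4 C females were above all H and all L females, and in males the arrays of the groups overlapped.

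The vri level was lower in H than in C (-0.55, SE 0.14, adjusted p = 0.0238) and higher in C than in L (0.60, SE 0.14, adjusted p = 0.013), while H and L differed by 0.04 (95% interval -0.27 to 0.36, adjusted p = 0.879). The median absolute difference between replicate samples was 0.49, the largest of the 12 probe sets. The H and C call ended without any of 7 single arrays (adjusted p 0.0522 to 0.0652), without High line 1 (-0.41, adjusted p = 0.154), Control line 1 (adjusted p = 0.109) or Control line 2 (adjusted p = 0.0638). The C and L call ended without Low line 1 (0.38, adjusted p = 0.181) or Control line 1 (0.56, adjusted p = 0.0813).

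The repressor tim showed the same order of groups on both of its probe sets, called here the brighter (1634188_a_at, mean Signal 620) and the dimmer (1631468_a_at, mean Signal 153). In females the brighter was at 591, 689, 584.5 and 679 in H, at 703, 776, 671 and 769 in C and at 564, 517, 564 and 371 in L. In males it was at 474, 539.7, 663 and 536 in H, at 737, 813, 688 and 609 in C and at 608, 732, 550.5 and 454 in L. Both H and C females were above all L females, while in males H, C and L overlapped.

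The brighter tim probe set was higher in C than in L by 0.42 (SE 0.09, adjusted p = 0.00803) and the dimmer by 0.64 (SE 0.14, adjusted p = 0.0063). Relative to C, the H lines were lower on the dimmer (-0.54, adjusted p = 0.0197), with -0.28 on the brighter (adjusted p = 0.0684). H and L differed by 0.14 and 0.10 (adjusted p = 0.352 and 0.67). The C and L call of the brighter ended without Low line 2 (0.26, adjusted p = 0.111) or Control line 1 (0.35, adjusted p = 0.0999). The calls of the dimmer ended without Control line 1, at 0.40 for C and L (adjusted p = 0.168) and at -0.30 for H and C (adjusted p = 0.319), and the latter also without High line 2 or any of 3 single arrays (adjusted p 0.050 to 0.0645).

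The partner of TIM, per, was not called in any contrast of groups. In females per (1638452_at) was at 156.5 to 226 in H, 200.1 to 308 in C and 194.6 to 232 in L, and in males at 117 to 147 in H, 148 to 182 in C and 78.9 to 207 in L. The H and C difference was -0.40 (95% interval -0.70 to -0.10, adjusted p = 0.0832), and all 4 H males were below all 4 C males. The male array of Low line 2 replicate 2 was at 78.9 against 152 to 207 in the other 3. Without it the H and L difference was -0.36 (adjusted p = 0.0216), against -0.21 with it (adjusted p = 0.337). The H and C difference was called without either male array of Low line 2 (-0.40, adjusted p = 0.0114 in both cases), and without replicate 1, at 177.7, C was also higher than L (0.33, adjusted p = 0.0329). Leaving out either array of a line and sex takes their disagreement out of the error. The p can then fall at an unchanged estimate, as it did for H and C.

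The repressor cwo had probe sets that ordered the groups differently. On the brighter (1623277_at, mean Signal 1520), females were at 1353, 1569, 1542 and 1556 in H, at 2640, 2912, 1778 and 1779.7 in C and at 1663, 1862, 1545 and 1298 in L. Males were at 1009.8, 1091, 1326 and 998 in H, at 1501, 2132, 1190.4 and 1171 in C and at 1000.2, 1393.5, 1229.6 and 933 in L. The C arrays were high mainly through Control line 1, which exceeded Control line 2 by 0.62 (SE 0.14, adjusted p = 0.0185).

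This probe set was lower in H than in C (-0.48, SE 0.10, adjusted p = 0.00602) and higher in C than in L (0.43, SE 0.10, adjusted p = 0.00979). Without Control line 1 these values were -0.17 (adjusted p = 0.398) and 0.12 (adjusted p = 0.562), and without Control line 2 they were -0.79 and 0.74. The H and C call also ended without High line 1 (adjusted p = 0.0568) and the C and L call without Low line 2 (0.32, adjusted p = 0.121).

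On the dimmer cwo probe set (1631722_at, mean Signal 197), females were at 185 to 320 in H, 195 to 252 in C and 163 to 182 in L, and males at 152 to 259 in H, 134 to 292 in C and 86.5 to 161 in L. It was higher in H than in L by 0.60 (SE 0.17, adjusted p = 0.0284), where the brighter gave -0.05 (95% interval -0.26 to 0.16, adjusted p = 0.776). That call ended without any of 9 single arrays (adjusted p 0.0511 to 0.0723) or without High line 1 (0.40, adjusted p = 0.288), Low line 1 or Low line 2 (adjusted p = 0.074 and 0.11). Which transcripts each probe set detects is not given in the files.

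Both H line means lay below both C line means in each sex for 6 of the 12 clock probe sets, namely per, both of tim, vri, Pdp1 and the brighter cwo, against 8.19% of all probe sets tested, and above them for 0 (6.08%). Both C line means lay above both L line means in each sex for 4, the dimmer tim, vri, Pdp1 and the dimmer cwo, against 8.67%, and below them for 1, cry (5.35%). Between H and L this separation held for 1 probe set upwards, the dimmer cwo, and 1 downwards, Pdp1, against 7.46% in either direction. Over single arrays, all 4 H females were above all 4 L females in 2 clock probe sets, the brighter tim and the dimmer cwo (5.98% of all probe sets). All H arrays were below all C arrays in 3 in females (4.89%) and 3 in males (4.13%). All C arrays were above all L arrays in 5 in females (8.47%) and 2 in males (5.09%). All H arrays were above all C arrays in 0 in females (3.05%) and 0 in males (2.8%). In males H was above L in 0 (4.72%) and C below L in 0 (3.16%).

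The summed markers of neurons and of the eye were lower in L than in C females. Averaged over the sexes, not each gene of these lists was. The summed Signal of the 5 named neuronal genes was 1270 to 1338 in C females, 1017 to 1371 in H females and 965.5 to 1069 in L females, and in males 1526 to 1874, 1391 to 1774 and 1218 to 1705. That of the 8 named eye genes, from a tissue rich in clock cells, was 34867 to 40652 in C females, 34363 to 39303 in H females and 28886 to 34121 in L females, and in males the ranges overlapped (33753 to 38967, 35043 to 38643 and 33013 to 41736). Low line 1 females, at 33715 to 34121, were near the C females, and Low line 2 females were at 28886 to 30068. Averaged over the sexes, 3 of the 8 eye genes were called higher in C than in L and 1 lower, rdgA (-0.43, adjusted p = 0.0262), with trp at 0.01, and 1 of the 5 neuronal genes was called, elav (0.43). Most of the eye sum came from Arr1 and Arr2 (median Signal 12001.5 and 16276.3), which were not called between C and L (limma adjusted p = 0.132 and 0.502). The summed Signal of the 6 named muscle genes was 16614 to 55434 in females and 22373 to 53243 in males, and that of the 7 fat body genes 56527 to 83038 and 11197 to 19527, with overlap between the groups of a sex. The part of nervous tissue and eye in the levels of tim, vri, Pdp1 and cwo was not tested.

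The light receptor cry differed between the 2 High lines, and no pooled group contrast of it was called. In females cry (1628719_at) was at 1394, 1680.5, 1142 and 924 in H, at 1177, 958, 1142 and 1092 in C and at 1219.9, 1302.5, 1118 and 1181 in L. In males it was at 1930.5, 1843, 1267 and 1051 in H, at 1284.5, 1650.4, 1461 and 1495.5 in C and at 1728, 2033.5, 1885.5 and 1409.5 in L. High line 1 exceeded High line 2 by 0.64 (SE 0.12, adjusted p = 0.00678).

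The group differences in cry were -0.09 for H and L (adjusted p = 0.518), 0.11 for H and C (adjusted p = 0.496) and -0.20 for C and L (95% interval -0.38 to -0.01, adjusted p = 0.137), where both C line means were below both L line means in each sex. Without High line 1, cry was lower in H than in L (-0.41, adjusted p = 0.0319), and without High line 2 it was higher in H than in C (0.43, adjusted p = 0.0218).

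The kinase gene dco had the closest replicates, with a median absolute difference of 0.06. In females dco (1624447_s_at) was at 1957, 1879.7, 2359.7 and 2706 in H, 2435 to 2522 in C and 2272 to 2637 in L, and in males all 12 arrays lay between 948 and 1151. No group contrast was called, with -0.07 for H and L (95% interval -0.17 to 0.04) and -0.12 for H and C (95% interval -0.22 to -0.01, adjusted p = 0.157). High line 1 was below High line 2 by 0.26 (difference -0.26, adjusted p = 0.0439), a call that ended without any of 21 single arrays (adjusted p 0.052 to 0.143). Without High line 2, dco was lower in H than in L (-0.20, adjusted p = 0.0374) and than in C (-0.25, adjusted p = 0.0186).

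In all, line 1 and line 2 of the H group differed in 4 of the 12 clock probe sets, Clk, Pdp1, cry and dco, against 5.36% of all probe sets tested. The lines of the L group differed in 1, Clk (3.87%), and those of the C group in 1, the brighter cwo (5.57%).

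The tim paralogue timeout (1641590_at) was low in H. In females it was at 205, 136, 98.5 and 119 in H, at 152, 163, 279.7 and 218 in C and at 204, 189.6, 314 and 251 in L. In males it was at 44, 82, 43.7 and 43.1 in H, at 67.9, 71.9, 84.4 and 105 in C and at 55.9, 50.5, 68.2 and 91 in L. The groups overlapped in both sexes, and in males most arrays lay below the Signal of 75 used as the minimum median.

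The timeout level was lower in H than in L by 0.57 (difference -0.57, SE 0.13, adjusted p = 0.00841) and lower in H than in C by 0.61 (difference -0.61, SE 0.13, adjusted p = 0.0079), while C and L differed by 0.04 (adjusted p = 0.887). Within females the H and L difference was -0.81 (adjusted p = 0.0114) and within males -0.34 (adjusted p = 0.366). Both pooled calls rested on the second line of a group. Without High line 2 they were -0.30 and -0.34 (adjusted p = 0.262 and 0.249), without Low line 2 the H and L difference was -0.30 (adjusted p = 0.286), and without Control line 2 the H and C difference was -0.34 (adjusted p = 0.244). The female H and L call ended without High line 2 (-0.50, adjusted p = 0.168), Low line 2 (-0.55, adjusted p = 0.213) or the single array of High line 1 female replicate 2 (-0.66, adjusted p = 0.0561).

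Taken within each sex, the contrasts called 4 of the 12 for H and L in females (14.5% of all probe sets) and 2 in males (5.57%), 3 for H and C in females (6.27%) and 2 in males (3.06%), and 5 for C and L in females (18.7%). For C and L in males limma called 0 of the 12 (3.92%), with 6, and 17.3% of all probe sets, at an unadjusted p under 0.05. The sexes' H and L differences were called unequal for 0 of the 12 (0.551%), with 2, and 15% of all, at an unadjusted p under 0.05. In males the calls were Clk and Pdp1, for H and L as for H and C.

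The 2 samples of a line and sex were different pools of flies from 1 population, and their differences show which clock probe sets moved together from sample to sample. Over the 12 such pairs, the same sample was the higher in the brighter tim probe set and in vri in 12 of 12. The brighter cwo probe set followed tim in 11 of 12 and vri in 11 of 12. Among the 65419641 pairs that all tested probe sets can form, the median was 6 of 12, 0.518% agreed in 11 or more and 0.0526% in 12.

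The dimmer cwo probe set followed the brighter cwo in 10 of 12 pairs and tim and vri in 9 of 12 each, and Clk followed tim and vri in 9 of 12 each, where 8.76% of all pairs of probe sets agreed in 9 or more. Every combination of the 12 clock probe sets was looked through, and others agreed as often. They were cyc with dco in 10 of 12, and per with Pdp1 in 9 of 12. The dimmer tim with Clk, and the dimmer cwo with cyc and with the dimmer tim, also agreed in 9 of 12. The brighter tim probe set was higher in the same sample as the dimmer tim in 8 of 12 pairs, as per in 6 of 12 and as Pdp1 in 3 of 12. Clk and Pdp1 were higher in the same sample in 2 of 12 pairs, and 2.25% of all pairs of probe sets agreed in 2 or fewer. The points share their libraries, and the part of collection hour was not tested.

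**Figure D3:**
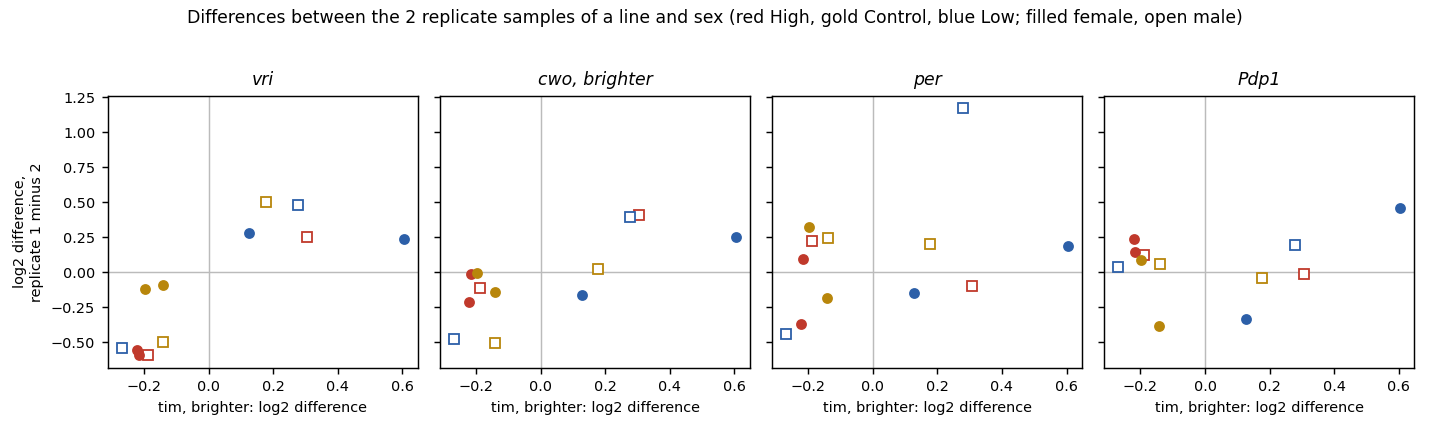
Difference in log2(Signal) between replicate 1 and replicate 2 of each of the 12 combinations of line and sex, for the brighter tim probe set (x axis) against vri, the brighter cwo probe set, per and Pdp1 (y axis, 1 panel each), with red for High, gold for Control, blue for Low, filled circles for females and open squares for males. For vri all 12 points lie in the lower left and upper right parts of the panel, for cwo 11 do, for per 6 and for Pdp1 3.

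Sex had larger effects than selection on several of these genes. Of the 12 clock probe sets, 7 differed between the sexes at an adjusted p under 0.001 (69.5% of all probe sets tested), 5 with the higher level in females (43.9%) and 2 in males (25.6%). The median difference over all probe sets was 0.19 in favour of females, and 0.25 after quantile normalization, so that the sex differences stand on a shifted base.

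Among the 5 was timeout, whose male median of 68.1 lay under the minimum of 75 against 196.9 in females, so that it was tested only through its female level. Its difference of 1.51 is a description, and without it 6 of 11 were called, 4 higher in females and 2 in males. Higher in females were cyc (1.33, SE 0.06), dco (1.20, SE 0.04), per (0.53, SE 0.11) and the brighter cwo probe set (0.52, SE 0.08). The adjusted p was 9.72e-12 for cyc, 4.7e-13 for dco, 0.000519 for per and 2.67e-05 for cwo. For cyc the females ranged from 445 through a median of 601 to 880 and the males from 190 through 240.1 to 259.7. For dco the females ranged from 1879.7 through 2439.5 to 2706 and the males from 948 through 1013 to 1151. For both genes all 12 female arrays were above all 12 male arrays, as for 28.7% of all probe sets. The call for per ended without any of 13 single arrays (adjusted p 0.0010 to 0.00144) and without any of 5 lines, all but Low line 2 (0.50 to 0.58, adjusted p 0.00106 to 0.00327).

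Higher in males were Clk (females minus males -1.11, SE 0.04, adjusted p = 1.55e-12) and cry (-0.40, SE 0.07, adjusted p = 8.56e-05). For Clk the females ranged from 215 through a median of 270.5 to 441 and the males from 451 through 560.9 to 1132, with all 12 females below all 12 males, as for 17.1% of all probe sets. Clk and cyc, whose proteins work as a pair, had opposite sex differences in whole flies. Pdp1 (-0.23, adjusted p = 0.00467), vri (-0.18), both tim probe sets (0.01 and 0.06) and the dimmer cwo probe set (0.26) did not pass the threshold. With quantile normalization Pdp1 (-0.33, adjusted p = 0.000284) and the dimmer tim probe set (0.49, adjusted p = 0.000301) did.

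The sexes also differed in tissue. The summed Signal of the DNA replication genes was 7007 to 15497 in females and 565 to 879 in males, and the ovary and testis sums given above did not overlap between the sexes. The part of ovary and testis in the sex differences of cyc, dco, timeout and Clk was not tested.

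**Figure D4:**
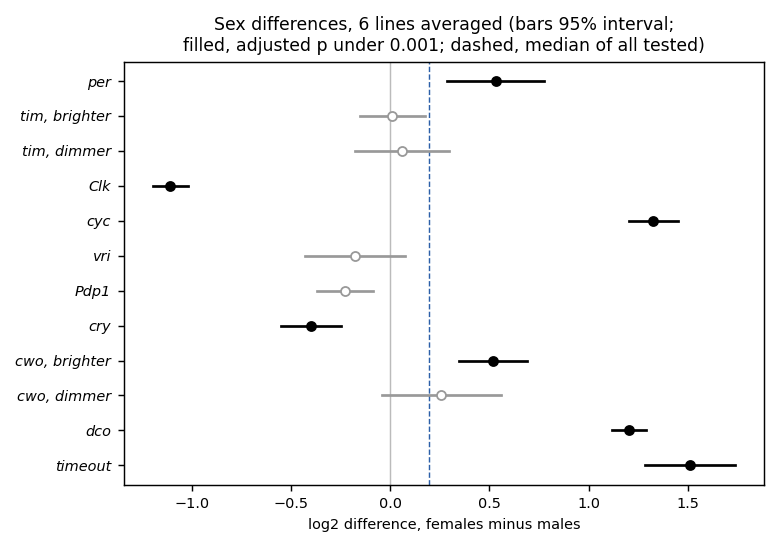
Difference in log2(Signal) between females and males averaged over the 6 lines (x axis) for the 12 clock probe sets (y axis), with points at the limma estimate, bars for the 95% interval, filled points for an adjusted p under 0.001 and a dashed line at the median of all probe sets tested (0.19). Clk (-1.11) and cyc (1.33) lie on opposite sides of 0, and timeout, tested only through its female level, is shown as a description.

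Around the core loop, 3 lists of clock-related genes were read from the same fits, with 1 probe set a gene. Their calls were not examined without single arrays or lines. Of 9 kinase and phosphatase genes that act on PER and TIM, 3 were named on the array and tested. Among these, wdb, a regulatory subunit of protein phosphatase 2A, was lower in H than in L (-0.17, SE 0.05, adjusted p = 0.0255) and than in C (-0.21, adjusted p = 0.0145). In females wdb was at 534.9 to 708 in H and 689 to 882 in L, and in males at 314 to 401 in H and 310.0 to 396 in L. The other two, tws and CkIalpha, gave 0.14 (adjusted p = 0.177) and -0.07 (adjusted p = 0.505) for H and L.

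Of 10 genes for turnover and translation of clock proteins, all tested, 2 rose in H relative to L (7.85% of all probe sets) and 0 fell (7.89%). They were jet, an F-box protein that acts in the loss of TIM in light (0.42, SE 0.13, adjusted p = 0.0376), and ctrip, a ubiquitin ligase that acts on CLK and PER (0.24, SE 0.07, adjusted p = 0.0349). For jet, females were at 146 to 184 in H and 95.6 to 133 in L, and males at 119 to 204 in H and 99.7 to 159 in L. For ctrip the arrays overlapped in both sexes. Its females were at 1284 to 1982 in H and 1310 to 1504.5 in L, and its males at 903 to 1414 in H and 800 to 969 in L. The next by p, lark and Fmr1, which encode RNA-binding proteins, gave 0.10 (adjusted p = 0.294) and -0.14 (adjusted p = 0.171). The median over the list was -0.03, beside -0.01 over all probe sets.

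Of 18 pacemaker output and input genes, 16 had a probe set annotated with that gene alone and 14 were tested. In H relative to L, unc79, a subunit of the sodium leak channel complex, was higher by 0.40 (SE 0.09, adjusted p = 0.00688), and ITP, a neuropeptide of clock neurons, by 0.18 (SE 0.06, adjusted p = 0.0394). Neither was called between H and C, with unc79 at -0.04 and ITP at -0.12 (limma adjusted p = 0.848 and 0.182). Both were higher in C than in L, by 0.43 and 0.31 (limma adjusted p = 0.00471 and 0.00233). Pdfr, the receptor of the clock neuropeptide PDF, was lower in H by 0.45 (difference -0.45, SE 0.14, adjusted p = 0.0383), and nocte, which acts in temperature input to the clock, gave -0.18 (adjusted p = 0.0755). In females unc79 was at 166 to 223 in H, 201 to 239.6 in C and 129.5 to 163.5 in L, so that L lay below both other groups. Pdfr was at 179.9 to 235 in H, 288 to 414.5 in C and 222 to 339 in L females, so that the H arrays lay below all C arrays.

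In the same list of 14, 5 genes were lower in H than in C (6.82% of all probe sets) and 0 higher (4.36%), and 5 were higher in C than in L (9.38%) and 0 lower (6.15%). The list median was -0.07 for H minus C and 0.19 for C minus L, beside -0.02 and 0.01 over all probe sets. Pdf, which encodes the neuropeptide that joins the clock neurons, gave 0.18 for H and L (SE 0.19, adjusted p = 0.566). The neuronal sums given above were also higher in C than in L in females, and their part in these calls was not tested.

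The genes whose log2(Signal), less the mean of each sex, followed a clock gene most closely over the 24 arrays were found for the 3 members with the smallest p of the line effect. For Clk they were Kmn1, a kinetochore protein (r = 0.84), Gal, a beta-galactosidase (0.79), and CG10560 (0.76). Chosen for their likeness to Clk on these arrays, they are described without a test: High line 1 minus High line 2 was 0.84 in Kmn1, 0.66 in Gal and 0.58 in CG10560. In Kmn1 the High line 1 males were at 249 and 356, while all other males lay between 72.6 and 152.

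For Pdp1 the closest were CG17019 (r = 0.88), the transcriptional repressor ken (0.84) and the cyclic nucleotide phosphodiesterase Pde11 (0.84), with H minus L at -0.28, -0.38 and -0.39, again a description. For timeout they were Mob2 (r = 0.77), the calpain CalpB (0.77) and CG16727 (0.76), with H minus L at -0.88 in CG16727. These correlations describe 24 arrays that share lines and sexes.

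Clk and Pdp1 lie near each other in the genome. In the RefSeq annotation of Drosophila melanogaster, 2 genes stand between them, CG32371 and CG32369, and both were tested. High line 1 and High line 2 differed by -0.12 in CG32371 (SE 0.24, adjusted p = 0.854) and by -0.20 in CG32369 (SE 0.36, adjusted p = 0.819). H and L differed by -0.09 (SE 0.17, adjusted p = 0.785) and 0.38 (SE 0.25, adjusted p = 0.353), and neither was called. For Clk the SE was 0.07 between the High lines and 0.05 between H and L, where its difference was also 0.38. With the larger SEs of these neighbours a difference of 0.38 could go uncalled, and a change shared over this region was not tested.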

How the data were processed

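RNA of whole flies was hybridised by the authors to Affymetrix Drosophila arrays, 1 sample per array. The deposited values are MAS5 Signal, an intensity on a linear scale that the authors scaled between arrays; no columns of other series were present. Gene names came from the platform annotation, updated through RefSeq. The members, gene lists and tests were chosen with earlier results of these data known.

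Signal was taken to log2 without a pseudocount, and tests covered 11439 of 18769 probe sets, those whose median Signal reached 75. Means of the 12 combinations of line and sex were fitted with limma 3.58.1 in R 4.3.3 (lmFit and eBayes, 12 residual degrees of freedom). The threshold on p (adjusted by Benjamini-Hochberg) was 0.001 for line, sex and their interaction, the study's own, and 0.05 for contrasts. The fit was tested on simulated data. Members were named exhaustively; up to 4 genes of each related list were named by the smallest p between H and L, and 3 genes like each of 3 members by correlation. Each list gene was read on its probe set of highest mean Signal. Alternatives were a pseudocount of 50, quantile normalization, median centring within each sex, no filter, a filter at 150, the methods' factorial analysis of linear Signal, a replicate block, leaving out each array and each line, and line as the unit. The number of arrays limits the precision. Promoter and protein sequences were not used here.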

Additional observations from a re-analysis of the deposited data

Results flagged for a closer look

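Of 72 groups of 4 arrays (12 probe sets, 3 selection groups and both sexes), 2 held an array far from the other 3 by Dixon's criterion, where chance alone flags about 1 in 20. In High females, the brighter cwo probe set (1623277_at) was at 1353.4 in line 1 replicate 1 and at 1541.8 to 1569.4 on the other arrays. In High males, timeout (1641590_at) was at 82 in line 1 replicate 2 and at 43.1 to 44 on the other arrays. The line effect of timeout had an adjusted p of 0.000627 by limma without that array and 0.000811 without line 1 replicate 1, against 0.00272 with all arrays. Leaving out either array takes the disagreement between them out of the error, which can lower p by itself.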

How the results depend on the processing

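Of the clock probe sets' own calls, 2 turned in direction under an alternative, both for Clk without High line 1: H and L at -0.064, and H and L in females at -0.16. The replicate numbers did not pair the samples, since only 6 of 66 correlations between deviations were over 0.1 (median -0.01). With the replicate number as a block, the counts of calls were as without it, except that line 1 and line 2 differed in 3 probe sets in High and 0 in Low (3 at an unadjusted p under 0.05).

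The line effect was called for 4 probe sets with log2(Signal + 50), 1 without High line 1 and 10 at an adjusted p under 0.05. The methods' factorial analysis of linear Signal called the interaction for 1, C and L in males for 1 and the H and L difference between the sexes for 1. H and L gave 3 with no filter, 3 without High line 1, 2 without Low line 2, 1 with line as a random block and 0 with line means. H and C gave 3 without High line 1, 3 without Control line 1, 1 with the random block and 0 with line means. C and L gave 3 without Low line 2, 1 without Control line 1, and 0 with the random block and with line means.

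Within females, H and L gave 2 with no filter, 1 without High line 1 and 1 without Low line 2. H and C in females gave 5 with log2(Signal + 50) and 1 without Control line 1. C and L in females gave 3 with no filter, 1 without Low line 2 and 2 without Control line 1. In males H and L gave 0 without High line 1 (2 at an unadjusted p under 0.05) and 1 without Low line 1, and C and L gave 1 with quantile normalization. The lines of Low differed in 0 with log2(Signal + 50), quantile normalization, median centring or no filter, and without High line 2, Control line 1 or Control line 2 (3 to 5 at an unadjusted p under 0.05). The lines of Control differed in 2 without High line 1. The cause was not tested.

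Leaving out single arrays gave 3 to 5 calls for H and L, 4 to 7 for H and C, 6 to 8 for C and L, 2 to 3 for line, 6 to 7 for sex and 0 to 0 for the interaction. In females it gave 1 to 4 for H and L, 2 to 4 for H and C and 2 to 6 for C and L, and in males 2 to 3, 2 to 3 and 0 to 1. The difference between the sexes gave 0 to 0, and line 1 against line 2 gave 3 to 4 in High, 0 to 1 in Low and 0 to 2 in Control. Precision is limited by the 2 arrays for each line and sex, and timeout in males lay near or under the minimum of 75.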
